A study of Homo sapiens with 9 samples.

Results

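The genes described here encode the machinery that copies DNA, from the marking of replication origins to the packing of the new strands into chromatin. They are 51 genes chosen by symbol and grouped by role, out of 35762 gene symbols measured, and all 51 were present and passed the filter on low counts. Poly-A RNA was sequenced from TYUC-1, an established human cell line of neuroendocrine esophageal carcinoma. It was sampled on day 0, day 3 and day 6 of EPZ-6438, a drug that blocks EZH2, the enzyme that methylates a lysine of histone H3, with 3 libraries per day. EPZ-6438 is the treatment given in the labels for every library, day 0 included, and the protocol names 2 uM EPZ-6438 or DMSO without saying which the day 0 cells had. Vehicle libraries of the later days were not analysed here, so the drug's effect and time in culture cannot be told apart in any comparison. The labels name biological replicates of a single cell line, so the p-values measure the spread between samples of that line.

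Replication begins when the origin recognition complex (ORC1 to ORC6), with CDC6 and CDT1, loads the MCM2 to MCM7 ring onto DNA before S phase. The kinase CDC7 with DBF4, the GINS complex, CDC45 and MCM10 then turn the ring into an active helicase, and DNA polymerase alpha with primase starts each strand. Polymerases delta and epsilon extend the strands on the PCNA clamp, while ribonucleotide reductase and thymidylate enzymes supply the nucleotides. Transcription of many of these genes is known to depend on E2F factors, which are released when the retinoblastoma protein is phosphorylated, and EZH2 is itself known as an E2F target.

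The promoters of 3 members are shown because they differ in their motifs and the genes differ in their course: RRM2 and CDC6, with the lowest p among the members on day 6, and MCM7, which was not called in any comparison. Each is the 300 bases from 250 before to 50 after the start annotated by RefSeq (GRCh38.p14), printed 5′ to 3′ on the gene's strand, at chr2:10122489-10122788 on the plus strand for RRM2, chr17:40287629-40287928 on the plus strand for CDC6 and chr7:100101348-100101647 on the minus strand for MCM7. Capitals mark matches on either strand to E2F letters (TTTCCCGC, TTTGGCGC, TTTCGCGC or TTTGCCGC), to CCAAT, the letters known to be bound by NF-Y, or to the cell cycle homology region, CHR (TTTGAA or TTCGAA).
RRM2: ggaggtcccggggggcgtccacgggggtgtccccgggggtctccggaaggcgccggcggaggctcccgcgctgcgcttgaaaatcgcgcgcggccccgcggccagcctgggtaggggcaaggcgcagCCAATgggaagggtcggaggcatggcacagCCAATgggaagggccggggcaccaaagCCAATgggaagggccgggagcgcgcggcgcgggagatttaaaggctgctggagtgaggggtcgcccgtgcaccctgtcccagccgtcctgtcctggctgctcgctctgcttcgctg
CDC6: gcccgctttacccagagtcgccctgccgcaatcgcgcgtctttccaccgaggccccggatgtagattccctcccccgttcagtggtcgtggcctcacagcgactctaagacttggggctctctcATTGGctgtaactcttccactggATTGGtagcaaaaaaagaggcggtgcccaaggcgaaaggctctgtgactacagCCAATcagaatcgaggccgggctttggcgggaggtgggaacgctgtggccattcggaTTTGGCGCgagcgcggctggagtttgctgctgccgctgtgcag
MCM7: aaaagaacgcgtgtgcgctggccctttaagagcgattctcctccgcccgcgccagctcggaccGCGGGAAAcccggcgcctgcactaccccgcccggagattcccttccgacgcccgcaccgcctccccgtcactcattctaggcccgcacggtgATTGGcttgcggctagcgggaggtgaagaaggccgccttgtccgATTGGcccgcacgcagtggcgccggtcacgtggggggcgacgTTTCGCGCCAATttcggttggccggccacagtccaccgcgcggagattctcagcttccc
RRM2 held 3 CCAAT matches and no E2F match, CDC6 held 3 CCAAT matches and 1 E2F match, and MCM7 held 3 CCAAT and 2 E2F matches, of which the one nearest the start shares 1 base with a CCAAT. RefSeq promoters were available for 45 of the 51 members. E2F letters were present in 18 of these 45 (40.0%), against 3.33% of all 27305 promoters in the table and 5.34% of those of the genes tested. CCAAT was present in 24 members (53.3%), against 35.7% of all promoters and 36.8% of those of the genes tested, and CHR in 4 members (8.89%), against 16.6% and 11.1%. Among members called lower on day 6, E2F letters were present in 11 of 33, and among those not called lower in 7 of 12. CCAAT was present in 20 of 33 and 4 of 12, and CHR in 4 of 33 and 0 of 12. A match is a description of the letters and not a binding site.

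Library totals ranged from 21638874 to 31235055 estimated counts, so 3 counts corresponded to 0.098 to 0.141 counts per 1000000 counts (CPM), and the least abundant member over all libraries was PRIM2. The second day 0 library stood apart from its replicates. In it, 16 members lay more than 20% above and 4 more than 20% below the mean of the other day 0 libraries, against at most 3 members in total in any other library compared with its own replicates. POLE was at 384, 214 and 369 CPM in the 3 day 0 libraries, MCM4 at 86.2, 50.9 and 103 CPM, PCNA at 329.7, 471 and 339 CPM, and RPA3 at 41.2, 61.6 and 41.6 CPM. Without that library the members called lower numbered 28 on day 3 and 40 on day 6.

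Of the labelled cell type's markers, ENO2 had a mean of 371 CPM on day 0, SYP and INSM1 were at 5.85 and 4.41 CPM, and CHGA was at 0 in all 9 libraries. ENO2 and NCAM1 were called higher on both days, and SYP, INSM1, CHGB and NEUROD1 were called on neither. Summed fibroblast markers were 0.808 to 1.46 CPM on day 0 and 10.1 to 12.2 on day 6, with COL1A1 at a mean of 0.492 CPM on day 0 and 9.52 on day 6 and LUM at 0 on day 0 and day 3. Leukocyte markers summed to 486 to 640 CPM on day 0, 342 to 359 on day 3 and 324 to 327 on day 6, nearly all of it LYZ, while PTPRC stayed near 0.5 CPM and CD3E was at 0 in 8 of the 9 libraries. Of the 4 leukocyte markers tested, 1 was called lower on day 3, and 1 lower and 1 higher on day 6. Epithelial markers summed to 1383 to 1590 CPM on day 0, 1265 to 1328 on day 3 and 1455 to 1567 on day 6, with EPCAM called lower and CDH1 higher on both days and KRT8 higher on day 6. Endothelial markers summed to 0.611 to 0.849 CPM on day 0, 1.22 to 2.07 on day 3 and 1.58 to 2.24 on day 6, with VWF called higher on both days. The part of these markers in the results on replication genes was not tested.

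On day 6, 35 of the 51 replication genes were lower than on day 0 and none was higher, where a call means an adjusted p under 0.05 in edgeR's quasi-likelihood test over all 15345 genes tested. No member was higher by an unadjusted p under 0.05 or in DESeq2 either, and without the second day 0 library POLD2 and RPA3 were. By the same rule 25.7% of all genes tested were called lower, 28.9% higher and 54.6% in either direction. Of the 11038 genes averaging 5 CPM or more, 34.2% were called lower and 22.6% higher. Replication genes are abundant, and among the 6889 genes with a mean at or above that of the lowest member 42.8% were called lower, against 68.6% of the members. The median log2 fold change of the members was -0.39, against 0.01 for all genes tested and -0.17 for those 6889 genes. Their summed level fell from between 7143 and 7332 CPM on day 0 to between 5536 and 5916 CPM on day 6, a mean change of -20.9%, and the days did not overlap. The highest day 6 library was below the lowest day 0 library for 36 members, and 27.5% of all genes tested met that condition, while no member had all day 6 libraries above day 0, as 31.2% of all genes did. In bulk RNA, fewer cells in S phase and less RNA per cell cannot be told apart.

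On day 3, 22 members were lower than on day 0 and 2, TK1 and POLD2, were higher, when 18.1% of all genes tested were called lower, 22.5% higher and 40.6% either way. Of genes averaging 5 CPM or more, 24.1% were called lower and 19.3% higher. Of the 6889 genes with a mean at or above that of the lowest member, 30.3% were called lower and 13.1% higher. Without the third day 3 library 14 members were lower. The members' median log2 fold change was -0.21, against 0.01 for all genes tested and -0.11 for those 6889 genes. The members' sum was 6438 to 6794 CPM, a mean change of -8.43%. From day 3 to day 6, 12 members were lower and none higher, against 4.76% and 11.5% of all genes (16.3% in either direction) and 5.96% and 6.91% of genes averaging 5 CPM or more. No member was higher in this step by an unadjusted p under 0.05 or in DESeq2. The count of lower genes was 1 without the second or the third day 3 library, 6 without the first, 4 and 6 without the second or the third day 6 library, and 31 without the second day 0 library. The days did not overlap for 38 members with lower and for none with higher day 6 values, against 20.7% and 22.8% of all genes. The median log2 fold change of this step was -0.21 for the members, -0.001 for all genes tested and -0.06 for the 6889 abundant genes. Of those 6889 genes, 6.87% were called lower and 3.43% higher in this step. Among the 35 genes called lower on day 6, a median of 57.1% of the log2 change was already present on day 3, with a range of 13.9% to 87.7%. Both changes share the day 0 libraries, and the 35 genes were chosen by their day 6 change. A day 0 value that is high by error alone raises this share. In mean level, 39 members were lower at each step, 10 were higher on day 3 and then lower, and none was higher at both steps.

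**Figure D1:**
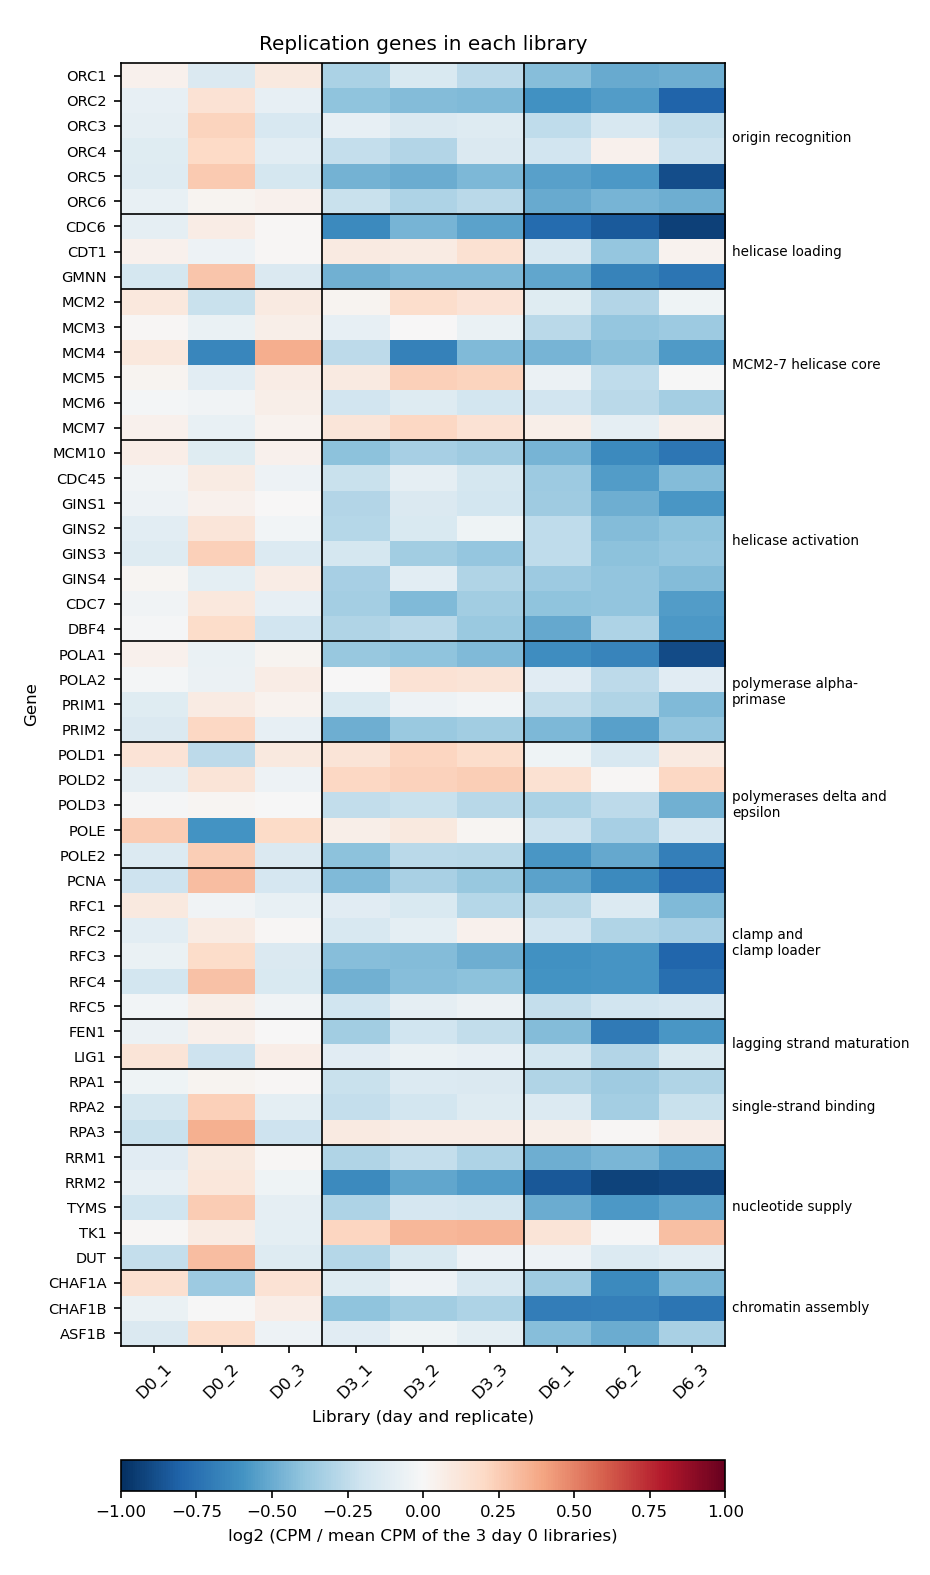
Heatmap of the 51 replication genes, grouped by role, in each of the 9 libraries; the colour is log2 of CPM over the day 0 mean of the same gene. Most genes are below their day 0 mean on day 6, while several MCM, polymerase and nucleotide supply genes are at or above it on day 3, and the second day 0 library differs from the other day 0 libraries.

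The origin recognition complex binds origins and recruits the loading factors. Of its 6 subunits, ORC1, ORC2, ORC5 and ORC6 were lower on both days, and ORC3 and ORC4 passed the test on neither. The day 3 calls of ORC2 and ORC5 held in all 18 alternative analyses, that of ORC6 in 16 and that of ORC1 in 11. ORC2 was at 85.3, 99.6 and 85.2 CPM on day 0, at 68.3, 66.8 and 66.3 on day 3, and at 59.1, 61.2 and 51.7 on day 6. All day 3 and day 6 values lay below all day 0 values, with log2 fold changes of -0.42 ± 0.09 on day 3 and -0.65 ± 0.09 on day 6 (SE, n = 3 per day, edgeR adjusted p = 0.00258 and 6.64e-05). ORC6, the subunit least tightly held in the human complex, was at 59.7, 63.9 and 64.6 CPM on day 0, at 53.8, 50.7 and 51.9 on day 3, and at 44.2, 45.5 and 44.8 on day 6. It stepped down without overlap at each time, with log2 fold changes of -0.27 ± 0.07 and -0.48 ± 0.07 against day 0 (adjusted p = 0.00811 and 8.46e-05). ORC1, an ATP-binding subunit known to be degraded after origin licensing, was at 55.3, 48.6 and 57.4 CPM on day 0, at 43.3, 48.3 and 44.8 on day 3, and at 40.0, 37.9 and 38.3 on day 6. The day 6 libraries were the lowest, with a log2 fold change of -0.47 ± 0.08 from day 0 (adjusted p = 0.000431). ORC5 had a day 6 log2 fold change of -0.66 ± 0.12 (adjusted p = 0.00076). ORC4 had means of 38.8, 33.3 and 35.8 CPM on the 3 days, and its day 6 value overlapped day 0 (adjusted p = 0.374).

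CDC6 loads the MCM ring together with CDT1, and geminin, encoded by GMNN, binds CDT1 and blocks reloading. CDC6 was at 123, 138 and 132 CPM on day 0, at 83.9, 94.8 and 90.5 on day 3, and at 76.7, 73.1 and 68.6 on day 6. No library of a later day reached an earlier one, and the log2 fold changes against day 0 were -0.54 ± 0.08 and -0.84 ± 0.08 (adjusted p = 0.000267 and 3.69e-06). GMNN was lower on both days, with -0.46 ± 0.11 on day 3 and -0.63 ± 0.11 on day 6. CDT1 was at 72.5 ± 2.45, 78.1 ± 2.16 and 64.8 ± 9.51 CPM (SD, n = 3) on the 3 days and passed the test in no comparison (adjusted p = 0.403 on day 3 and 0.177 on day 6). The factor that loads the ring and the inhibitor of loading were both lower, and CDT1 had no call. The summed level of the 3 loading genes changed by -33.2% on day 6, without overlap between the days.

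The MCM2 to MCM7 ring is the helicase itself, and of its 6 subunits 0 were lower on day 3 and 2, MCM3 and MCM6, on day 6. On day 3, MCM4 and MCM6 had lower values at an unadjusted p under 0.05 (0.0439 and 0.0334), and DESeq2 called MCM6 lower. Without the second day 0 library MCM4 and MCM6 were both called lower on day 3, and MCM4 also with no filter on low counts. MCM3 had a log2 fold change of -0.34 ± 0.07 on day 6 (adjusted p = 0.00156) and MCM6 of -0.27 ± 0.07 (adjusted p = 0.0062). MCM7 was at 607, 561 and 604 CPM on day 0, at 641, 681 and 654 on day 3, and at 617, 555 and 613 on day 6. Its day 3 libraries lay above all day 0 libraries, but the log2 difference of 0.16 ± 0.08 did not pass the test (adjusted p = 0.115), and day 6 overlapped day 0. MCM5 was lower on day 6 than on day 3 (-0.29 ± 0.09, adjusted p = 0.0432) and was not called against day 0 on either day. The MCM5 call held in 9 of 18 alternative analyses. MCM2 had means of 321, 347 and 290.0 CPM and passed no test, but was called lower on day 6 without the second day 0 library. MCM4 had a log2 difference of -0.48 ± 0.20 on day 6 (adjusted p = 0.0583), and without the second day 0 library -0.73 (adjusted p = 2.91e-05). The summed level of the ring was 5.44% higher on day 3 and changed by -8.88% on day 6, both overlapping day 0. The day 6 overlap came from the second day 0 library alone, at 1628 CPM. The other day 0 libraries were at 1827 and 1866 CPM, above the day 6 range of 1510 to 1671. With the GC and length trend taken out of each library, the day 3 log2 differences of MCM2, MCM5 and MCM7 turned negative, at -0.15, -0.03 and -0.08.

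All 8 genes of helicase activation were lower on day 6, and MCM10, GINS3, GINS4, CDC7 and DBF4 were already lower on day 3. The day 3 calls of MCM10 and CDC7 held in all 18 alternative analyses. Those of GINS3, GINS4 and DBF4 held in 7, 10 and 13 of them. MCM10, needed to start the loaded helicases, was at 99.5, 87.5 and 98 CPM on day 0, at 71.6, 75.5 and 74.3 on day 3, and at 68.6, 61.1 and 57.6 on day 6. Every later library lay below every day 0 library, and the log2 fold changes were -0.36 ± 0.08 and -0.60 ± 0.08 (adjusted p = 0.00478 and 8.28e-05). GINS1, a subunit of the GINS complex that travels with the helicase, was at 119, 126 and 123 CPM on day 0, at 100.2, 111 and 108 on day 3, and at 95.9, 87.3 and 82.1 on day 6. It missed the threshold on day 3 (adjusted p = 0.0515) and was lower on day 6 by both comparisons, with -0.47 ± 0.08 from day 0 (adjusted p = 0.000307). The kinase gene CDC7 and the gene of its activator DBF4 had day 6 log2 fold changes of -0.45 ± 0.08 and -0.46 ± 0.10. CDC45 was lower on day 6 by -0.45 ± 0.08 and GINS2 by -0.36 ± 0.09, and neither was called on day 3. GINS3 had the highest adjusted p of the 8 on day 6 (0.0172), a call that held in 14 of 18 alternatives. GINS4 had a day 6 log2 fold change of -0.39 ± 0.08.

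Polymerase alpha and primase make the RNA-DNA primer of every new fragment. POLA1, the catalytic subunit, was at 117, 109 and 116 CPM on day 0, at 87.5, 85.9 and 83.7 on day 3, and at 74.2, 72.1 and 61.3 on day 6. It was lower at each step with no overlap, by log2 fold changes of -0.41 ± 0.08 on day 3 and -0.72 ± 0.08 on day 6 against day 0 (adjusted p = 0.00213 and 1.87e-05). The primase genes PRIM1 and PRIM2 were lower on day 6 (-0.32 ± 0.08 and -0.46 ± 0.10), PRIM2 also on day 3. POLA2, the accessory subunit of the same complex, was at 78.7, 84.1 and 70.4 CPM. It was called only from day 3 to day 6 (-0.25 ± 0.08, adjusted p = 0.0387), and that call held in 9 of 18 alternative analyses. Without the second day 0 library POLA2 was also called lower on day 6 against day 0. Whether POLA1 and POLA2 differed in their change was not tested.

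The polymerases that extend the strands were mixed. POLD2, the small subunit of polymerase delta, was at 187, 217 and 193 CPM on day 0, at 229.8, 234 and 237 on day 3, and at 221, 201 and 229 on day 6. Its day 3 libraries were all above day 0, with a log2 fold change of 0.23 ± 0.08 (adjusted p = 0.0388), and day 6 overlapped day 0 (adjusted p = 0.209). That call was lost in 11 of 18 alternative analyses. POLD3 and POLE2, accessory subunits of delta and epsilon, were lower on both days, by -0.35 ± 0.07 and -0.59 ± 0.11 on day 6. Their day 3 calls held in 14 and 11 of 18 alternatives. POLD1 and POLE, the catalytic subunits, passed no test, with means of 128, 144 and 125 CPM for POLD1 and 322, 336 and 273 CPM for POLE. POLE rested on the second day 0 library: without it the log2 difference was -0.17 on day 3 (adjusted p = 0.0341) and -0.47 on day 6 (adjusted p = 1.41e-05).

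All 6 genes of the sliding clamp and its loader were lower on day 6. PCNA, the ring that holds the polymerases on DNA, was at 279.8, 303 and 292 CPM on day 3 and 263, 244 and 223 CPM on day 6, below the lowest day 0 value of 329.7. Its log2 fold changes were -0.38 ± 0.12 and -0.64 ± 0.13 (adjusted p = 0.0294 and 0.00102), and -0.20 and -0.46 without the second day 0 library, still called. The day 3 call was lost without any 1 of the day 3 libraries and in the fit of those 2 days alone (adjusted p up to 0.0982). RFC3, a loader subunit, was at 118, 139.8 and 111 CPM on day 0, at 91.7, 90.9 and 87.6 on day 3, and at 80.6, 81.5 and 70.8 on day 6. The days did not overlap, and the log2 fold changes from day 0 were -0.45 ± 0.09 and -0.66 ± 0.09 (adjusted p = 0.00281 and 9.73e-05). RFC4 was also lower on both days, by -0.64 ± 0.12 on day 6. RFC1, RFC2 and RFC5 were called on day 6 alone, with smaller log2 fold changes of -0.28 ± 0.09, -0.27 ± 0.08 and -0.20 ± 0.07. Their calls held in 12, 16 and 13 of 18 alternative analyses.

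FEN1 and LIG1, the flap nuclease and the ligase that join the fragments of the lagging strand, had different calls. FEN1 was at 179, 193 and 187 CPM on day 0, at 146, 162 and 157 on day 3, and at 138, 114 and 125 on day 6. It was lower at each step without overlap, by -0.26 ± 0.08 on day 3 and -0.57 ± 0.08 on day 6 against day 0 (adjusted p = 0.0251 and 0.000131). The day 3 call of FEN1 held in 13 of 18 alternatives. LIG1 was at 118, 111 and 102 CPM in the mean and did not pass the test (adjusted p = 0.0668 on day 6), but it was called lower on day 6 in DESeq2 and, without the second day 0 library, on both days. Of the RPA genes, whose products coat single-stranded DNA, RPA1 was lower on day 6 (-0.32 ± 0.07, adjusted p = 0.0017). RPA2 and RPA3 were not called, RPA3 with means of 48.2, 50.9 and 49.7 CPM. Without the second day 0 library RPA3 was higher on both days, by 0.29 and 0.26 on the log2 scale (adjusted p = 0.000995 and 0.00152).

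Nucleotide supply held the gene with the largest decrease. RRM2, the regulated subunit of ribonucleotide reductase, was at 333, 381 and 342 CPM on day 0, at 226, 246 and 239 on day 3, and at 196, 185 and 187 on day 6. The 3 days were fully separate, and the log2 fold changes against day 0 were -0.57 ± 0.08 on day 3 and -0.90 ± 0.08 on day 6 (adjusted p = 0.000166 and 1.85e-06), the largest decrease among the 51 genes on both days. RRM1, the large subunit, was at 243, 282 and 265 CPM on day 0, at 214, 224 and 213 on day 3, and at 188, 193 and 182 on day 6. Again no day overlapped another, and the changes were smaller, at -0.28 ± 0.07 and -0.49 ± 0.07 (adjusted p = 0.0109 and 0.000167). TYMS, which makes thymidylate, was lower on day 6 (-0.53 ± 0.11, adjusted p = 0.00115). TK1, which salvages thymidine, was at 91.5, 95.9 and 84.6 CPM on day 0, at 105, 114 and 115 on day 3, and at 99.4, 89.9 and 112 on day 6. All its day 3 libraries lay above day 0, with a log2 fold change of 0.30 ± 0.09 (adjusted p = 0.0197), and day 6 overlapped both other days. The TK1 call was lost in 4 of 18 alternatives. DUT, which removes dUTP, passed no test and overlapped day 0 on both days.

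Chromatin assembly behind the fork uses CAF-1 and the histone chaperone ASF1. CHAF1B, a CAF-1 subunit, was at 88.1, 92.1 and 96.4 CPM on day 0, at 69.9, 72.5 and 74.6 on day 3, and at 57.1, 57.5 and 55.5 on day 6. It was lower at each step, by -0.35 ± 0.07 on day 3 and -0.70 ± 0.07 on day 6 against day 0 (adjusted p = 0.00176 and 4.92e-06). It was the only member called lower from day 3 to day 6 in all 18 alternatives (-0.35 ± 0.07, adjusted p = 0.00352). ASF1B and CHAF1A were lower against day 0 on day 6 only, by -0.41 ± 0.09 and -0.48 ± 0.13, with CHAF1A's day 6 values overlapping its second day 0 library at 113 CPM. Without that library CHAF1A was called lower on day 3 as well.

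**Figure D2:**
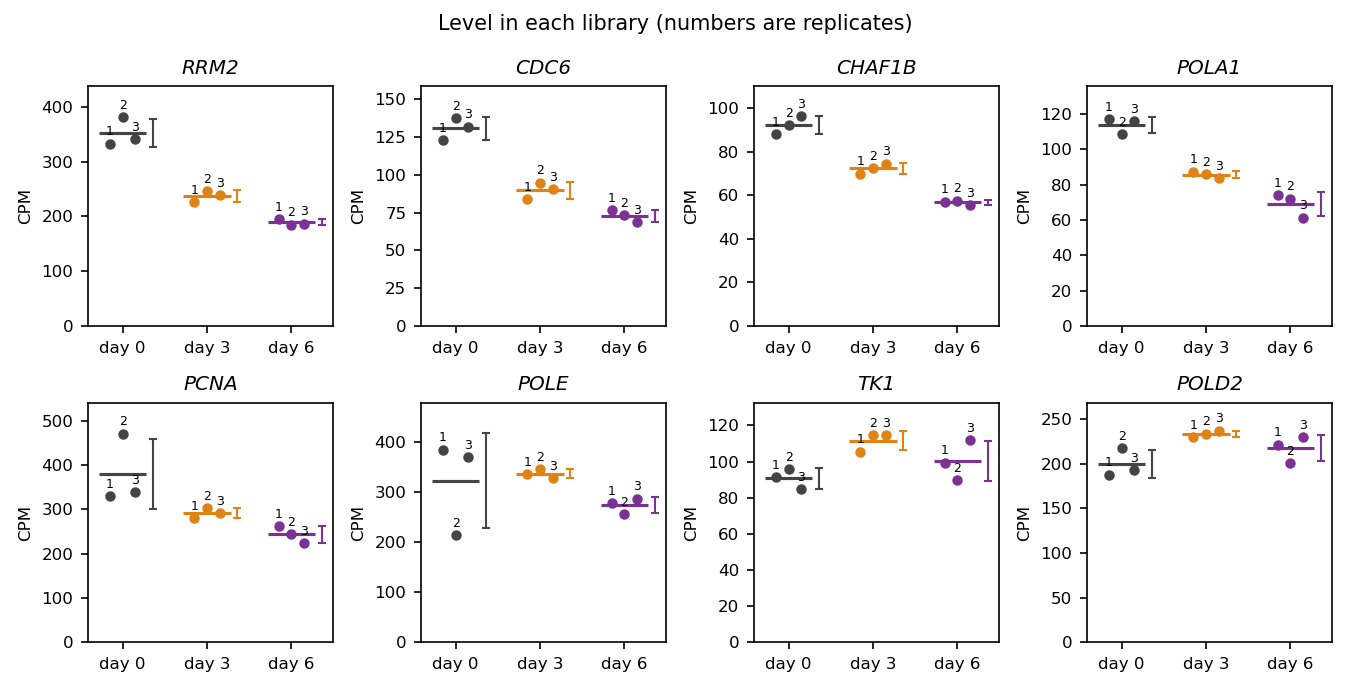
Level in CPM of 8 replication genes in each library, by day, with each point a library, the horizontal bar the day mean and the error bar 1 SD (n = 3). RRM2, CDC6, CHAF1B and POLA1 separate the 3 days, TK1 and POLD2 are highest on day 3, and POLE and PCNA show the second day 0 library apart from its replicates.

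**Figure D3:**
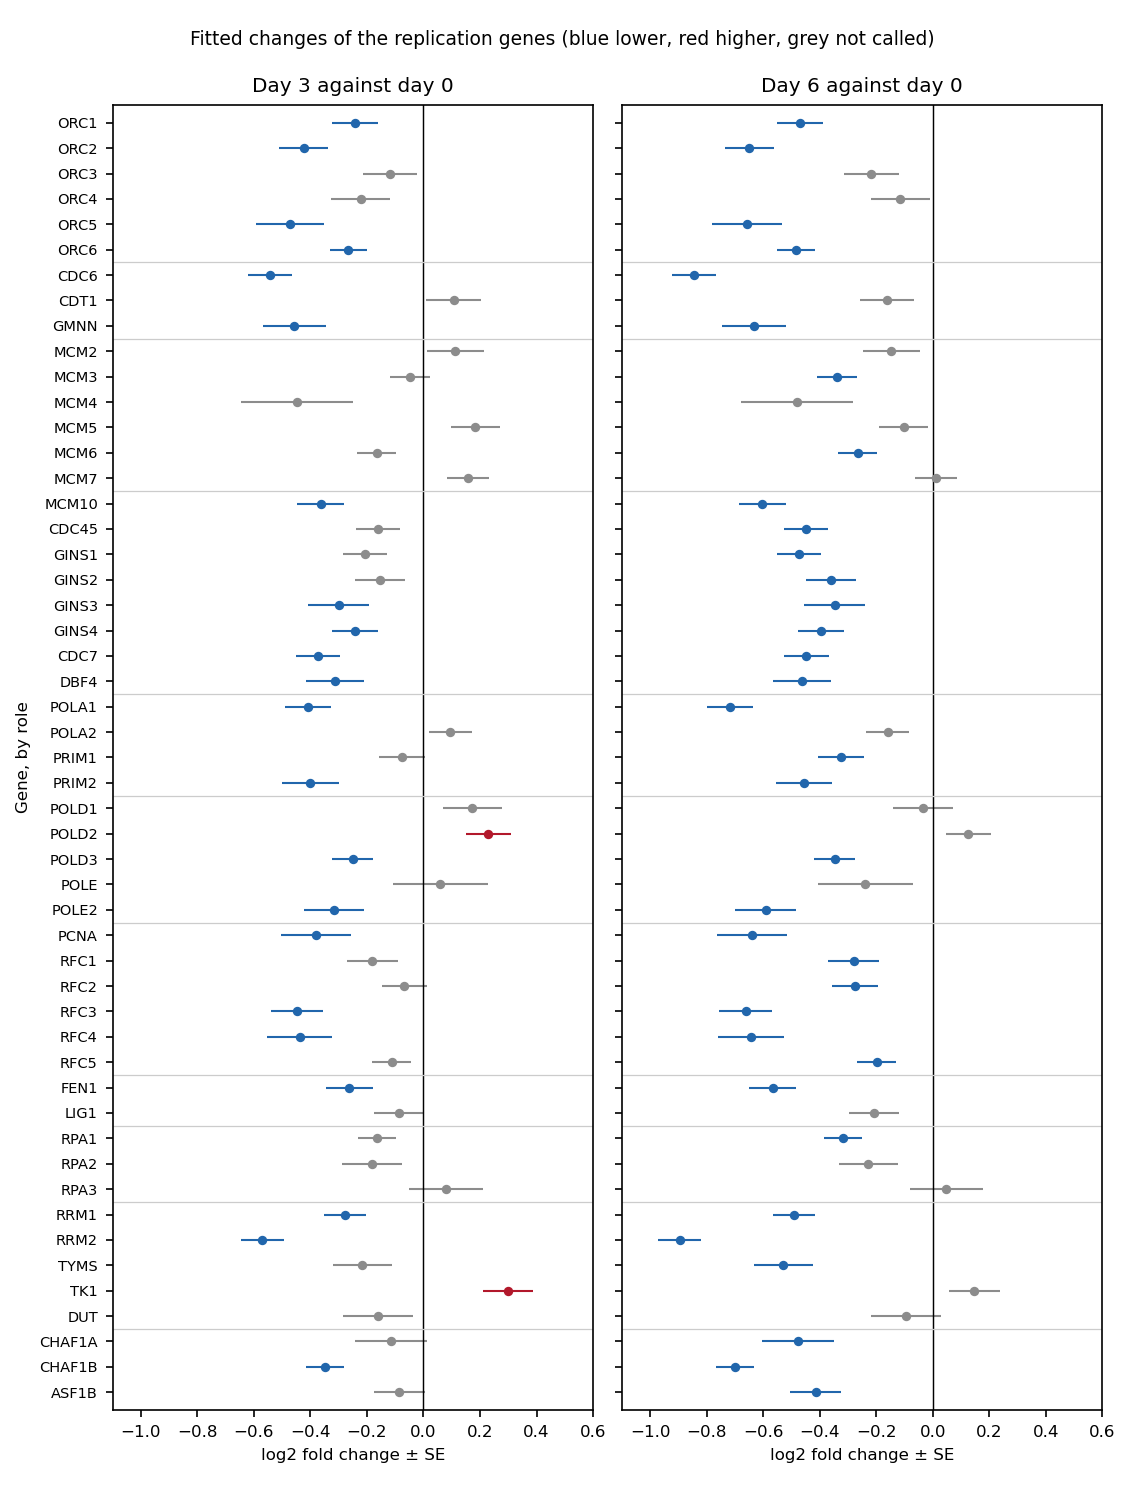
Log2 fold change of each of the 51 genes on day 3 and day 6 against day 0, with bars of 1 SE from edgeR, grouped by role. Day 6 values lie below 0 for 47 genes and range from -0.90 for RRM2 to 0.15 for TK1.

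The 6 members ORC6, CDC6, POLA1, FEN1, RRM2 and CHAF1B were called lower in all 3 comparisons, and 16 were lower on both days against day 0 without a call between them. A further 9 were called on day 6 alone, and MCM3, CDC45, GINS1 and ASF1B on day 6 against both earlier days. These patterns rest on calls from day 3 to day 6 that often moved with the processing. Of 18 alternatives, that call held in 4 for ORC6, 12 for POLA1, 14 for CDC6 and FEN1, 16 for RRM2 and 18 for CHAF1B. It held in 16 for MCM3, 14 for CDC45, 10 for GINS1 and 13 for ASF1B. The 12 with no call in any comparison were ORC3, ORC4, CDT1, MCM2, MCM4, MCM7, POLD1, POLE, LIG1, RPA2, RPA3 and DUT. Per kilobase of the main transcript on day 0, PCNA (279.4 CPM per kb) and MCM7 (199.8) were the most abundant members and ORC4 (5.787) the least. Within the ring, MCM7 RNA stood 10.4 times above MCM4 RNA per kilobase. The proteins are known to work in equal number, but protein was not measured here. The MCM4 mean included the second day 0 library at 50.9 CPM, against 86.2 and 103 CPM in the others. The exons of MCM7 overlap those of AP4M1.

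**Figure D4:**
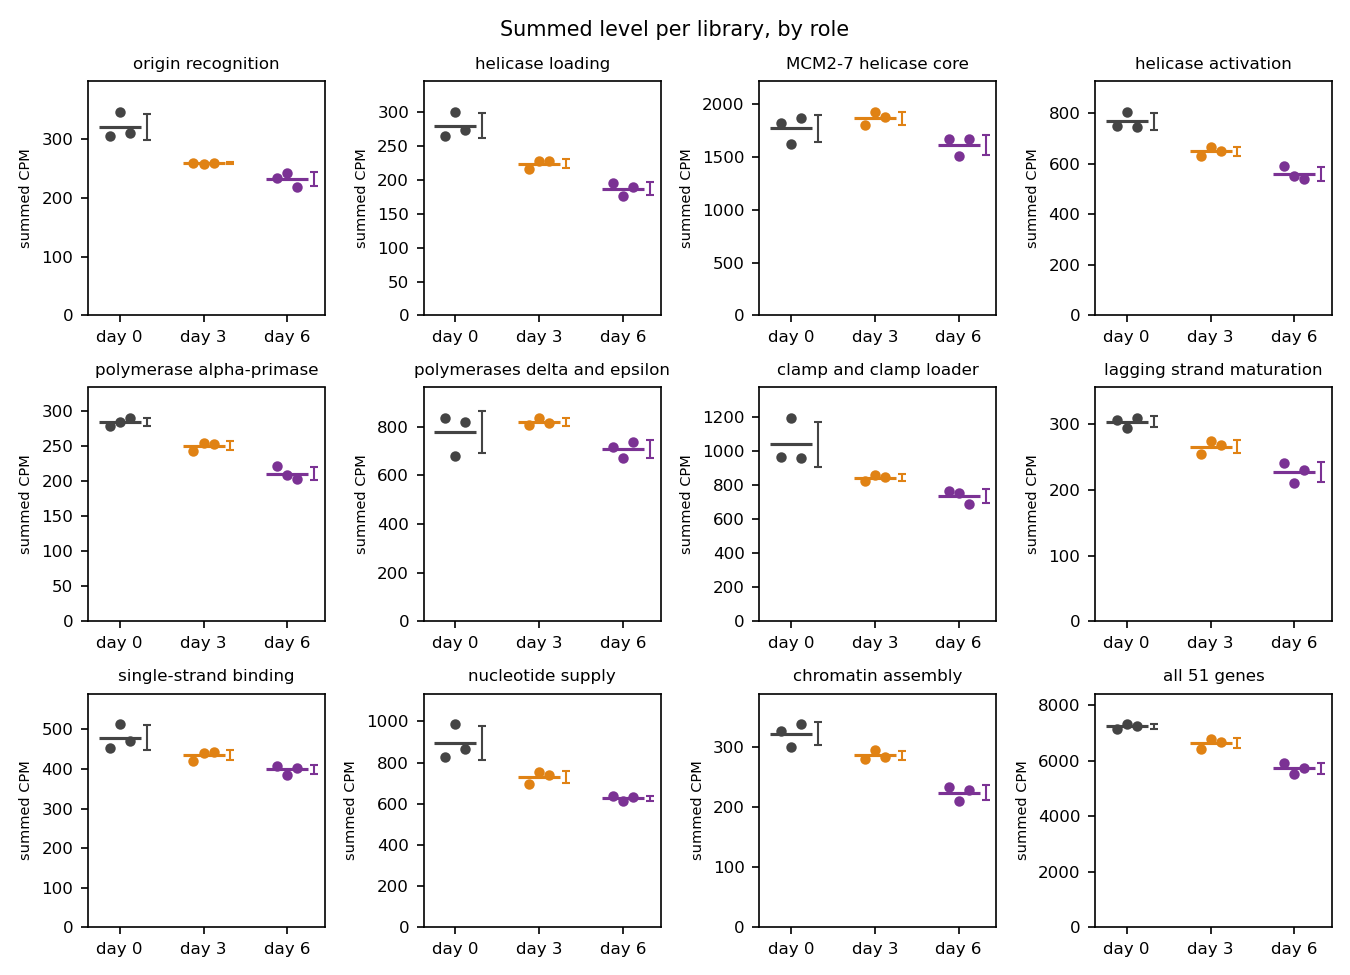
Summed level in CPM of the genes of each role in each library, by day, with points for libraries, horizontal bars for day means and error bars of 1 SD (n = 3). The MCM ring and the delta and epsilon polymerases overlap day 0 on both days, and the other roles do not on day 6. For the ring and these polymerases the day 6 overlap comes from the second day 0 library alone, at 1628 and 678 CPM. The other day 0 libraries lie above all day 6 libraries in both.

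GC content moved with these changes. The 35 genes called lower on day 6 had a median transcript GC of 45.4%, and the 16 not called had 56.5%. Members were lower on day 6 in 16 of 19 cases under 45% GC, 12 of 15 from 45% to 50%, 5 of 6 from 50% to 55%, and 2 of 11 at 55% or more. In the genes averaging 5 CPM or more the shares called lower in these bands were 50.8%, 42.6%, 29.3% and 13.1%. Across the 51 genes the log2 fold change had a Pearson correlation with GC of 0.72 on day 3 and 0.50 on day 6. Across 14929 genes it was 0.29 and 0.22. The Spearman rank correlations were closer, at 0.65 and 0.43 for the 51 genes against 0.44 and 0.35. The genes share libraries and are not independent replicates. With a GC and length trend removed from each library, 30 of the 35 day 6 calls were kept. MCM6, PRIM1, PRIM2, RFC1 and RFC5 lost theirs, while CDT1, MCM2, MCM5, MCM7, POLA2, POLD1, POLE and LIG1 were then called lower and RPA3 higher. The median log2 fold change was then -0.32. On day 3, 15 of the 24 calls were kept: ORC6, GINS3, DBF4, PRIM2, POLD3, POLE2 and RRM1 were no longer called lower, nor TK1 and POLD2 higher (adjusted p = 0.649 and 0.974). The 8 genes gained on day 3 were CDT1, POLD1, LIG1, RPA1, CHAF1A and ASF1B, called lower, and ORC3 and RPA3, called higher.

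**Figure D5:**
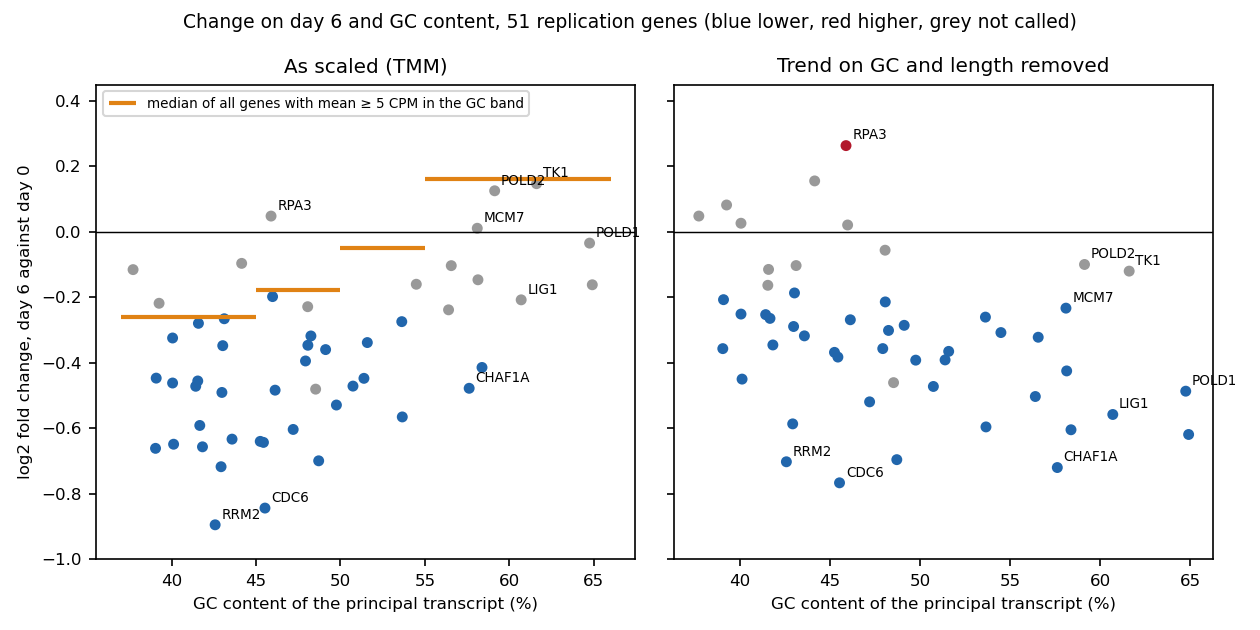
Log2 fold change on day 6 against the GC content in percent of the main transcript for the 51 genes, as scaled by TMM and after removal of the GC and length trend. Blue points are called lower, red higher and grey not called, orange lines are medians of genes averaging 5 CPM or more, and of the 11 genes at 55% GC or more 2 are called lower in the first panel.

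Other replication genes outside the 51, such as licensing, fork and checkpoint factors, were counted in the same way. Of 50, 28 (56%) were lower and 2 (4%) higher on day 3, against 18.1% and 22.5% of all genes tested. On day 6, 35 (70%) were lower and 3 (6%) higher, against 25.7% and 28.9% of all genes tested. Of the 6889 genes with a mean at or above that of the lowest member, 42.8% were lower and 15% higher on day 6. On day 3 those shares were 30.3% and 13.1%. The medians of the 50 genes were -0.28 and -0.45. TOPBP1, an activator of the ATR checkpoint kinase that is also needed for origin firing, went from 305 ± 10.6 to 229.6 ± 7.48 to 184 ± 19.2 CPM (SD, n = 3; day 6 adjusted p = 2.09e-05). SKP2, the ubiquitin ligase subunit that marks CDKN1B, and the helicase gene MCM9 were lower on day 6 by -0.67 ± 0.08 and -0.59 ± 0.07. POLD4, the smallest subunit of polymerase delta, was higher, at 5.40, 11.5 and 14.0 CPM.

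Of 27 regulators of S phase entry tested of 29, 10 (37%) were lower and 4 (14.8%) higher on day 3. Of all genes tested, 18.1% were lower and 22.5% higher on that day. On day 6, 15 regulators (55.6%) were lower and 4 (14.8%) higher, against 25.7% and 28.9% of all genes tested. Of the 6889 abundant genes, 42.8% were lower and 15% higher on day 6. CDKN1A, the cyclin-dependent kinase inhibitor p21, was at 2.87, 3.91 and 2.73 CPM on day 0, at 9.05, 9.63 and 9.35 on day 3, and at 14.7, 15.3 and 17.9 on day 6. It rose without overlap at each step, by 2.33 ± 0.14 on the log2 scale by day 6 (adjusted p = 9.42e-08). CDKN1C, encoding the related inhibitor p57, rose by 2.04 ± 0.16, and CCND1, encoding cyclin D1, by 1.19 ± 0.07. CCNE2, encoding an E-type cyclin of S phase entry, was lower by -0.91 ± 0.10. The 39 mitosis genes had 9 lower (23.1%) and 4 higher (10.3%) calls on day 6. The shares were 25.7% and 28.9% of all genes tested, and 42.8% and 15% of the 6889 abundant genes. The mitosis genes had a median of -0.06, with AURKA (-0.42 ± 0.08) and BUB1B (-0.38 ± 0.08) lower and CDC25C (0.50 ± 0.09) and KIF2C (0.31 ± 0.07) higher. The difference between the replication and mitosis lists was not tested.

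The leading genes lie on several chromosomes (GRCh38, GENCODE version 29): RRM2 on chromosome 2 at 10120698 to 10131419 and CDC6 on chromosome 17 at 40287633 to 40304657, both on the plus strand, CHAF1B on chromosome 21 at 36385378 to 36419015 and POLA1 on chromosome X at 24693919 to 24996986, also plus. Counts of 10 members, among them RRM2, PCNA, DUT, RPA2 and TYMS, are uncertain because pseudogenes named after them are annotated. The exons of 24 members overlap another gene, and whether strand was used in counting is not stated.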

How the data were processed

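Estimated counts per gene symbol in 9 libraries were deposited by the authors as whole numbers, not scaled to a common total. Tools listed in the submitters' processing notes are kallisto 0.44.0, bcl2fastq 2.19 and DESeq2, and the notes do not say how transcripts were summed to genes. The estimated counts were rounded to whole numbers and tested with edgeR 4.0.16 (R 4.3.3): filterByExpr with a count minimum of 10, TMM scaling, 1 mean per day over all 9 libraries, quasi-likelihood F-tests and Benjamini-Hochberg adjustment over 15345 genes, threshold 0.05. Standard errors are the log2 fold change over the square root of F. CPM uses TMM library sizes, and per-kilobase levels use the length of the principal GENCODE transcript. The script was tested on simulated data for day 6 against day 0. It recovered 16% of 1.25-fold changes and 92% of 1.5-fold changes, and 5.26% of its calls were false. A member without a call may therefore still have changed by a small amount. The simulation changed 100 of 14918 genes by each fold, while 54.6% of genes were called on day 6 in the data. Its adjusted threshold was thus stricter, and these shares are not those of the real test. The result for 1 marker gene is not reported here. All 51 members are named by role. Values in every library are given for the 12 members with the lowest p on day 6 and those called higher, and of each other list up to 4 called genes with the lowest p are named. Per-library values of MCM7, PCNA, POLE, MCM4 and RPA3 were chosen after their values were seen. Members and lists were chosen with earlier results of these data known. Alternatives were other scalings and filters, DESeq2 1.42.0, 2 days only, a replicate block, each library left out and, chosen after seeing the data, a GC and length trend removed (97.3% of genes matched).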

Additional observations from a re-analysis of the deposited data

How the results depend on the processing

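Of the 35 day 6 calls, 28 held in all 18 alternatives, and of the 22 lower and 2 higher day 3 calls 11 and 0 held. From day 3 to day 6, 1 of 12 calls held (CHAF1B). Leaving out 1 library, members lower ranged from 14 to 28 on day 3, 34 to 40 on day 6 and 1 to 31 between day 3 and day 6, members higher from 0 to 3, 0 to 2 and 0 to 0, and median log2 fold changes from -0.233 to -0.174, -0.421 to -0.373 and -0.245 to -0.191. The 1 was reached without the second or the third day 3 library, and the 31 without the second day 0 library, which also gave 28 and 40. The 14 came without the third day 3 library. With library size only, 14 were lower and 4 higher on day 3, 30 lower and 2 higher on day 6 (median -0.282), and 7 lower between them, and the median of all genes shifted by 0.115 on day 6. For genes averaging 5 CPM or more the counts were 2 higher on day 6 and 7 lower between days 3 and 6. In fits of the 2 days alone, 29 were lower between them, and after removal of the GC and length trend 30 were, with 1 higher on day 6. Just 1 member was higher on day 3 with median-ratio size factors, with TMM without mitochondrial and the 20 most abundant genes, with no filter, and with the replicate block. Replicate numbers did not pair the libraries (same-number correlations of deviations -0.164 to 0.244, 4 of 9 over 0.1). The replicate block gave 20 lower and 1 higher on day 3, 35 lower on day 6 and 10 lower between them. The cause of these differences was not tested. With library size only the sign turned for day 3 against day 0 MCM3 0.0304, PRIM1 0.00605, RFC2 0.0133 and for day 6 against day 0 ORC4 0.00653, MCM5 0.00709, POLD1 0.0727, DUT 0.0267 and for day 6 against day 3 MCM4 0.00262, RPA3 0.00338. For genes averaging 5 CPM or more the sign turned for day 3 against day 0 MCM3 0.00463 and for day 6 against day 0 POLD1 0.0503 and for day 6 against day 3 MCM4 0.000919, RPA3 0.00266. After removal of the GC and length trend the sign turned for day 3 against day 0 ORC3 0.161, CDT1 -0.314, MCM2 -0.151, MCM5 -0.0276, MCM7 -0.0792, POLA2 -0.0526, PRIM1 0.234, POLD1 -0.245, POLE -0.208, RFC5 0.0691, DUT 0.0578 and for day 6 against day 0 ORC3 0.0819, ORC4 0.0481, MCM7 -0.233, PRIM1 0.0261, POLD2 -0.0999, RFC5 0.0208, TK1 -0.120, DUT 0.155. With median-ratio size factors the sign turned for day 6 against day 0 MCM7 -1.60e-05. With no filter on low counts the sign turned for day 6 against day 0 MCM7 -0.0159. In DESeq2 the sign turned for day 6 against day 0 MCM7 -0.00600. Leaving out 1 library, the sign was not fixed for day 3 against day 0 in RPA3 -0.0243 to 0.290, POLE -0.170 to 0.205, DUT -0.268 to 0.0173, ASF1B -0.155 to 0.00904 and for day 6 against day 0 in POLD1 -0.159 to 0.0345, RPA3 -0.0585 to 0.255, MCM7 -0.0343 to 0.0573, DUT -0.207 to 0.0778 and for day 6 against day 3 in MCM4 -0.138 to 0.0683, GINS3 -0.101 to 0.0163, RPA2 -0.0985 to 0.00284.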
